A study of Bos taurus with 8 samples.

Results

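This account describes 9 genes of the complement system in cultured bovine articular chondrocytes, out of 24596 genes in the count table. The genes are *C1R*, *C1S*, *C2*, *C3*, *C7*, *CFB*, *CFI*, *SERPING1* and *CLU*. They were taken from the table by name, each matched exactly 1 row, and all 9 had enough counts to be tested. The cells came from the knee joints of wild type calves aged 1 to 2 weeks. Chondrocytes of the superficial zone (SZCs) and of the deep zone (DZCs) were cut from the same cores of cartilage and cultured for 3 days in medium with serum, with no other treatment. RNA-Seq was performed on 2 biological replicates of each zone. Each library is therefore a culture of many cells, and fewer cells of a type cannot be told apart from less RNA per cell.

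Complement is a set of secreted proteins that cleave each other in sequence. In the classical pathway the protease C1r activates C1s, which cleaves C4 and C2. In the alternative pathway factor B takes the place of C2. Both routes form enzymes that cleave C3, the central protein of the cascade, and the cascade ends in a membrane pore that begins with C5 to C7. C1 inhibitor (encoded by *SERPING1*), factor I (*CFI*) and clusterin (*CLU*) restrain it at successive steps. Liver makes most complement of the blood, but many connective tissue cells, chondrocytes among them, also transcribe these genes.

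The comparison asks which complement genes differ between the zone that expresses lubricin and the zone that does not. Library totals lay between 19918970 and 21890549 counts. Levels are given as CPM (counts relative to the library total) after scaling by the trimmed mean of *M* values (TMM). The detection floor was set at 3 counts, which correspond to between 0.129 and 0.187 CPM. *PRG4*, which encodes lubricin, was at 3164 and 2023 CPM in SZCs against 15.3 and 61.5 CPM in DZCs, so the libraries match their labels. The DZC libraries stood further apart from each other than the SZC libraries did. The summed level of 6 mitosis genes was 13.2 CPM in DZC replicate 1 and 272 CPM in DZC replicate 2, against 152 and 179 CPM in SZCs.

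Most of these complement genes were higher in SZCs. Of the 9 genes, 6 passed a false discovery rate (FDR) of 0.05 in the exact test of edgeR, adjusted over the 12857 genes tested, and all 6 were higher in SZCs. They are *C1R*, *C1S*, *C2*, *CFB*, *SERPING1* and *CLU*. In the same test 2.23% of all tested genes were called higher in SZCs. For 8 of the 9 genes both SZC libraries lay above both DZC libraries, against 21% of all tested genes. The median log2 fold change of the 9 genes was 2.11, whereas that of all tested genes was -0.04. These genes and the lists below were chosen with earlier results of these data known, so the shares describe them and are not a test. Log2 fold changes are of SZCs over DZCs throughout, and unless another tool is named, FDR values are from edgeR's exact test and errors beside fold changes are standard errors (SE). The calls depend on the test and on the libraries included. The quasi-likelihood test of edgeR called 0 of the 9 genes, as it called 0% of all tested genes. At an unadjusted p-value below 0.05 that test kept 7 of the 9, all higher in SZCs, against 5.8% of all tested genes in that direction. DESeq2 called 7 of the 9, adding *C3*, and 2.25% of all tested genes in that direction. Without SZC replicate 1 the exact test called 1 of the 9, *C1R*, and 0.391% of all tested genes. *CLU* was also lost without SZC replicate 2, and *C3* and *CFI* were gained without other libraries.

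**Figure D1:**
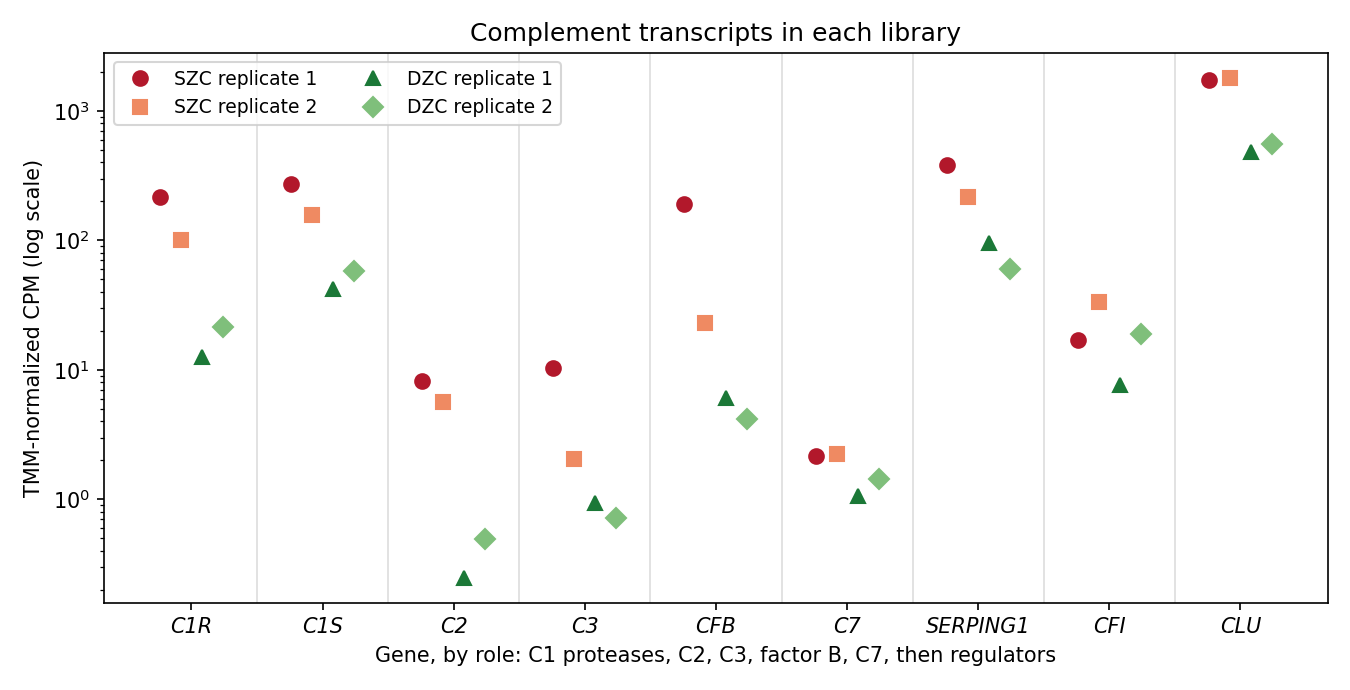
TMM-normalized CPM (log scale) of the 9 complement genes in each of the 4 libraries, with circles and squares for SZCs and triangles and diamonds for DZCs. The SZC points lie above the DZC points for 8 genes, overlap for *CFI*, and are spread most for *CFB*, at 191 and 23.0 CPM.

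Among the genes of the classical pathway, *C1R* (ENSBTAG00000008612) encodes the protease that activates C1s. Its counts were 4726 and 2340 in SZCs against 201 and 482 in DZCs, or 215 and 101 CPM against 12.5 and 21.6 CPM. The zones did not overlap, and the lower SZC library was 4.67-fold above the higher DZC library. SZCs exceeded DZCs by 3.21 ± 0.52 (SE) on the log2 scale, with an FDR of 3.26e-06 by edgeR, which is 9.24-fold with a 95% interval from 4.59 to 18.6. *C1R* stayed under the FDR threshold with each library left out in turn, at log2 fold changes from 2.56 without SZC replicate 1 to 3.67 without DZC replicate 2.

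*C1S* (ENSBTAG00000004840), which encodes the protease that cleaves C4 and C2, lies next to *C1R* among the protein-coding genes of the RefSeq annotation of the cow genome (assembly ARS-UCD2.0). It was at 273 and 157 CPM in SZCs against 41.9 and 57.5 CPM in DZCs. Both SZC libraries again exceeded both DZC libraries, by a smaller margin than for *C1R*. On the log2 scale the difference was 2.11 ± 0.43 (SE), or 4.32-fold (edgeR FDR 0.000351). With each library left out the edgeR FDR ranged from 3.24e-07 to 0.407, the latter without SZC replicate 1, where the log2 fold change fell to 1.66.

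*C2* (ENSBTAG00000007450) encodes the substrate of C1s that forms the enzymatic part of the C3 convertase. Its counts were 181 and 130 in SZCs against only 4 and 11 in DZCs. At 8.22 and 5.60 CPM against 0.249 and 0.493 CPM, the zones were the furthest apart of the 9 genes, with the lower SZC library 11.4-fold above the higher DZC library. The DZC libraries were close to the detection floor, so the size of the fold change, 17.9 (95% interval 6.81 to 47.2), rests on few counts. On the log2 scale the difference was 4.16 ± 0.71 (SE, edgeR FDR 7.84e-06). It was 4.78, or 27.4-fold, without DZC replicate 2, and 3.87 without SZC replicate 1, where the edgeR FDR was 0.13, the highest with a library left out (the lowest was 1.71e-07).

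*CFB* (ENSBTAG00000046158), which encodes factor B of the alternative pathway and is a paralog of *C2*, is the neighbor of *C2* in the same annotation. Its log2 fold change, the largest among the 9 genes, was 4.37 ± 0.89 (SE, edgeR FDR 0.00211), which ranked 50th among the 12857 genes tested. Its counts were 4200 and 534 in SZCs against 98 and 94 in DZCs. The DZC libraries were close to each other, at 6.09 and 4.21 CPM, but the SZC libraries differed 8.29-fold, at 191 and 23.0 CPM. The mean level was 107 ± 119 CPM (SD, n = 2) in the superficial zone and 5.15 ± 1.33 CPM (SD, n = 2) in the deep zone. The size of the 20.7-fold difference between the zones rests largely on SZC replicate 1. Without that library the log2 fold change was 2.15, or 4.45-fold, and without SZC replicate 2 it was 5.21, or 37.0-fold. With each library left out the edgeR FDR ranged from 1.76e-12 to 0.395, the latter without SZC replicate 1. In that fit the lone SZC library still lay above both DZC libraries.

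*C3* (ENSBTAG00000017280), whose product both pathways cleave, was uneven in SZCs in the same direction as *CFB*. Its counts were 228 and 48 in SZCs against 15 and 16 in DZCs, which corresponds to 10.4 and 2.07 CPM against 0.933 and 0.717 CPM. The zones did not overlap, but the SZC libraries differed 5.01-fold. SZCs exceeded DZCs by 2.91 ± 0.90 (SE) on the log2 scale, and the FDR of 0.0773 in edgeR's exact test missed the threshold. *C3* passed in DESeq2 with an FDR of 0.0352, the lowest of 8 alternatives, in which it ranged up to 0.405. Without SZC replicate 1 the log2 fold change was 1.32 (edgeR FDR 1). With each of the other libraries left out in turn *C3* passed, and its log2 fold change reached 3.64 without SZC replicate 2.

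*C7* (ENSBTAG00000011766) encodes a component of the membrane pore. It was at 2.18 and 2.24 CPM in SZCs against 1.06 and 1.43 CPM in DZCs, from 17 to 52 counts per library. The SZC values were nearly equal and lay above both DZC values. The difference on the log2 scale was 0.82 ± 0.64 (SE, edgeR FDR 0.886), with a 95% interval of the fold difference from 0.74 to 4.19. A difference of *C7* between the zones was thus not detected with these libraries, and the interval spans values from slightly lower to several-fold higher in SZCs.

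Of the regulators, *SERPING1* (ENSBTAG00000016267) encodes C1 inhibitor, which inactivates C1r and C1s. It was at 381 and 218 CPM in SZCs against 95.6 and 60.1 CPM in DZCs. Both SZC libraries were above both DZC libraries, as they were for the proteases that it inhibits. SZCs exceeded DZCs by 1.94 ± 0.46 (SE) on the log2 scale, or 3.85-fold (edgeR FDR 0.00356). With each library left out the edgeR FDR ranged from 2.62e-05 to 0.766, the latter without SZC replicate 1, where the log2 fold change fell to 1.48.

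*CFI* (ENSBTAG00000034501) encodes factor I, the protease that inactivates the cleaved forms of C3 and C4. It was the only one of the 9 genes whose zones overlapped, at 17.0 and 33.6 CPM in SZCs against 7.59 and 19.0 CPM in DZCs. In each zone replicate 2 had the higher level. The difference on the log2 scale was 0.93 ± 0.60 (SE, edgeR FDR 0.793), and the 95% interval of the fold difference ran from 0.845 to 4.27. The value moved with the library left out, from 0.35 without SZC replicate 2 to 1.75 without DZC replicate 2. In the latter fit the edgeR FDR was 0.00126, but 12.2% of all tested genes were called higher in SZCs there, and without each of the other libraries *CFI* did not pass (edgeR FDR up to 1).

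*CLU* (ENSBTAG00000005574) encodes clusterin, a secreted chaperone that also binds the terminal complex. Its counts were 38073 and 41705 in SZCs against 7759 and 12364 in DZCs. Its replicates were the closest of the genes called, at 1729 and 1796 CPM in SZCs against 482 and 554 CPM in DZCs. The mean level was 1762 ± 47.4 CPM (SD, n = 2) in the superficial zone and 518 ± 50.5 CPM (SD, n = 2) in the deep zone, and the zones were far apart relative to this spread. On the log2 scale the difference was 1.77 ± 0.38 (SE, edgeR FDR 0.000579), or 3.40-fold with a 95% interval from 2.04 to 5.66. Leaving out each library moved it only between 1.67 and 1.88, the narrowest range of the 9 genes. The edgeR FDR was nevertheless 0.411 without SZC replicate 1 and 0.304 without SZC replicate 2, fits in which the dispersion came from the DZC libraries alone, and as low as 6.44e-06 without a DZC library.

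**Figure D2:**
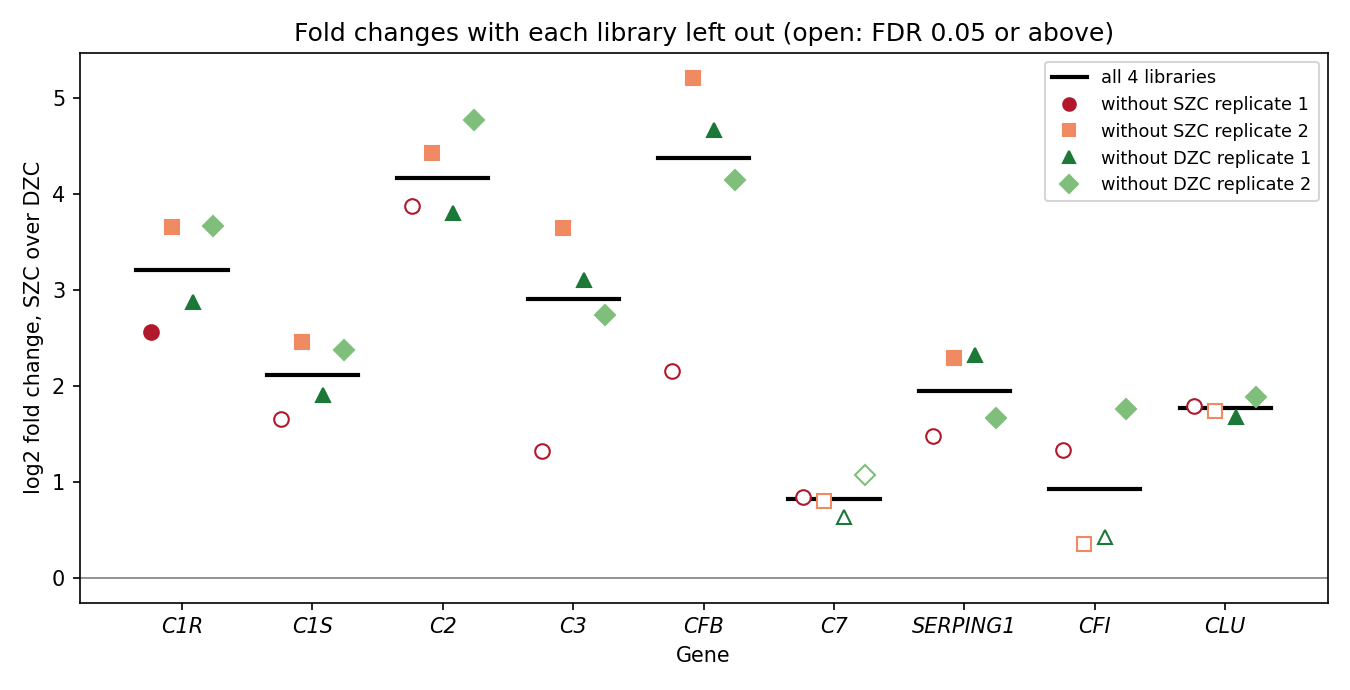
Log2 fold change of SZCs over DZCs for each gene with all 4 libraries (black line) and with each library left out (symbols), filled where the FDR of edgeR's exact test was below 0.05. All symbols lie above 0, *CLU* moves least, and *CFB* and *C3* fall to 2.15 and 1.32 without SZC replicate 1.

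Ratios of 2 genes within a library do not depend on how libraries are scaled. For *C1S* over *C1R* counts, the log2 ratio was 0.35 and 0.64 in SZCs against 1.75 and 1.41 in DZCs. The zones did not overlap, so *C1R* differed more between the zones than *C1S* did. The mean difference was -1.09, with p = 0.333 by an exact two-sided permutation test, the smallest that 2 libraries against 2 allow. The ratio of *C3* to *CFB* was also lower in both SZC libraries, at -4.20 and -3.48 on the log2 scale, than in the DZC libraries, at -2.71 and -2.55. That difference was -1.21 (exact two-sided permutation test, p = 0.333). The ratios of *CFB* to *C2* and of *C3* to *CFI* overlapped between the zones. The log2 ratio of *CFB* to *C2* ranged from 2.04 in SZC replicate 2 to 4.61 in DZC replicate 1, and that of *C3* to *CFI* from -4.73 in DZC replicate 2 to -0.71 in SZC replicate 1. The exact two-sided permutation p was 0.667 for both pairs. These 4 ratios form 1 family, and none can pass an adjusted threshold by this permutation test with this number of libraries.

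The 9 genes did not vary alike between the SZC libraries. After addition of 0.5 CPM, the log2 ratio of SZC replicate 1 to replicate 2 was 3.02 for *CFB*, and 3 of the 12857 tested genes had a larger ratio. It was 2.08 for *C3*, with 11 genes above it, and 1.09 for *C1R*, which exceeded 99.1% of the tested genes. *SERPING1* at 0.81, *C1S* at 0.79 and *C2* at 0.52 were likewise higher in replicate 1. *CLU* and *C7* were level between the SZC libraries, at -0.05 and -0.03, and *CFI* went the other way, at -0.96, below all but 3.41% of the tested genes. Between the DZC libraries, the log2 ratio of replicate 1 to replicate 2 lay between -1.27 for *CFI* and 0.67 for *SERPING1*. The median ratio of all tested genes was 0.00 in SZCs and -0.02 in DZCs. This pattern was noticed in the data and was not tested.

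**Figure D3:**
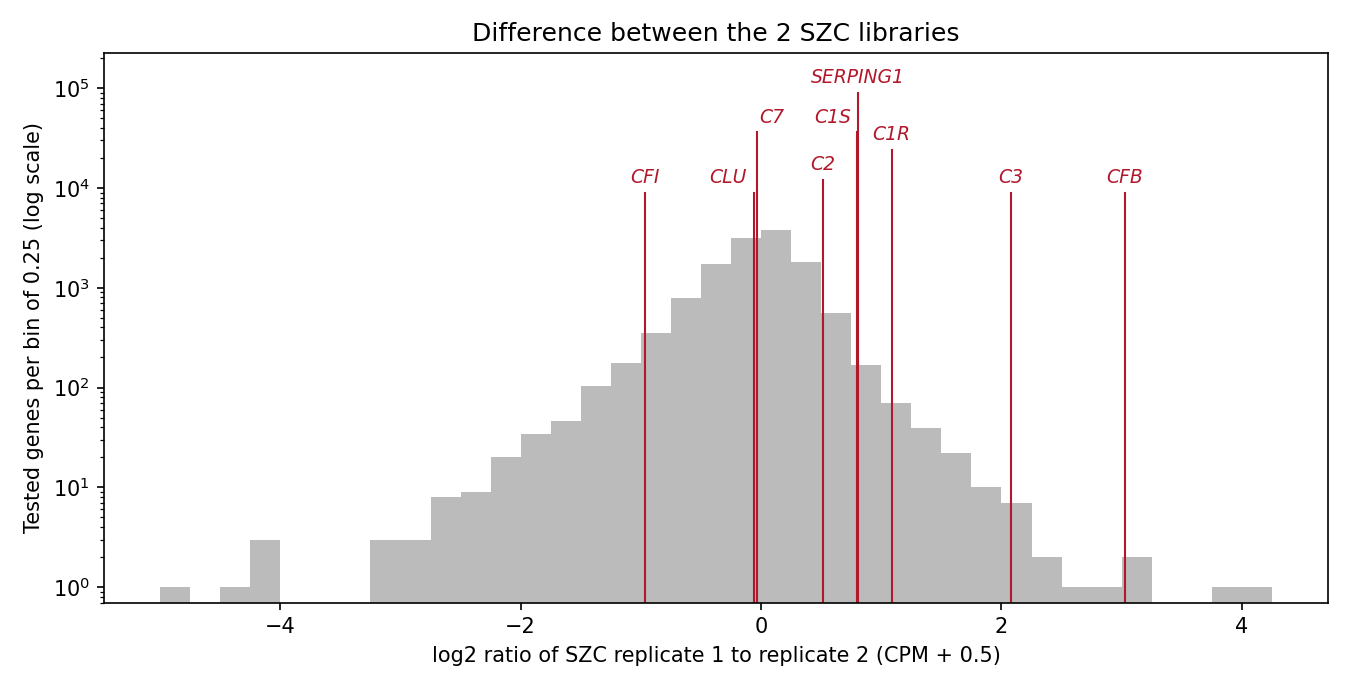
Histogram of the log2 ratio of SZC replicate 1 to SZC replicate 2 (after adding 0.5 CPM) over 12857 tested genes, with genes per bin on a log scale and red lines at the 9 complement genes. *CFB* at 3.02 and *C3* at 2.08 lie in the right tail, *CLU* and *C7* at the center and *CFI* at -0.96 on the left.

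The rest of the pathway was read from lists of 47 other complement genes. Of these, 42 were in the count table and 23 had enough counts to be tested, of which 3 passed an FDR of 0.05 in the exact test of edgeR. All 3 were higher in SZCs, against 2.23% of all tested genes. None was called higher in DZCs, where 0.7% of all tested genes were called, and the count in that direction was also 0 at an unadjusted p-value below 0.05 and in DESeq2. The median log2 fold change of the 23 was 0.94, and 17 of them had a positive value. Among genes that start or tag the cascade, *PTX3*, a pentraxin that binds C1q, had 1068 and 4819 counts in SZCs against 12 and 99 in DZCs. The difference on the log2 scale was 5.62 ± 0.94 (SE, edgeR FDR 0.000152), and unlike *CFB* it was higher in SZC replicate 2. It ranged from 4.21 without SZC replicate 2 to 7.43 without DZC replicate 2 and passed with each library left out. *COLEC12*, a membrane collectin, had 48.6 and 42.4 CPM in SZCs against 4.85 and 12.8 CPM in DZCs, with a log2 fold change of 2.36 (edgeR FDR 0.00196). Without SZC replicate 1 it did not pass (edgeR FDR 0.207, the highest with a library left out), and without DZC replicate 2 its log2 fold change was 3.24. *C4A*, which encodes the other substrate of C1s, had 82 and 52 counts in SZCs against 15 and 19 in DZCs. Its zones did not overlap, but its log2 fold change of 1.74 ± 0.68 (SE) had an edgeR FDR of 0.23.

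**Figure D4:**
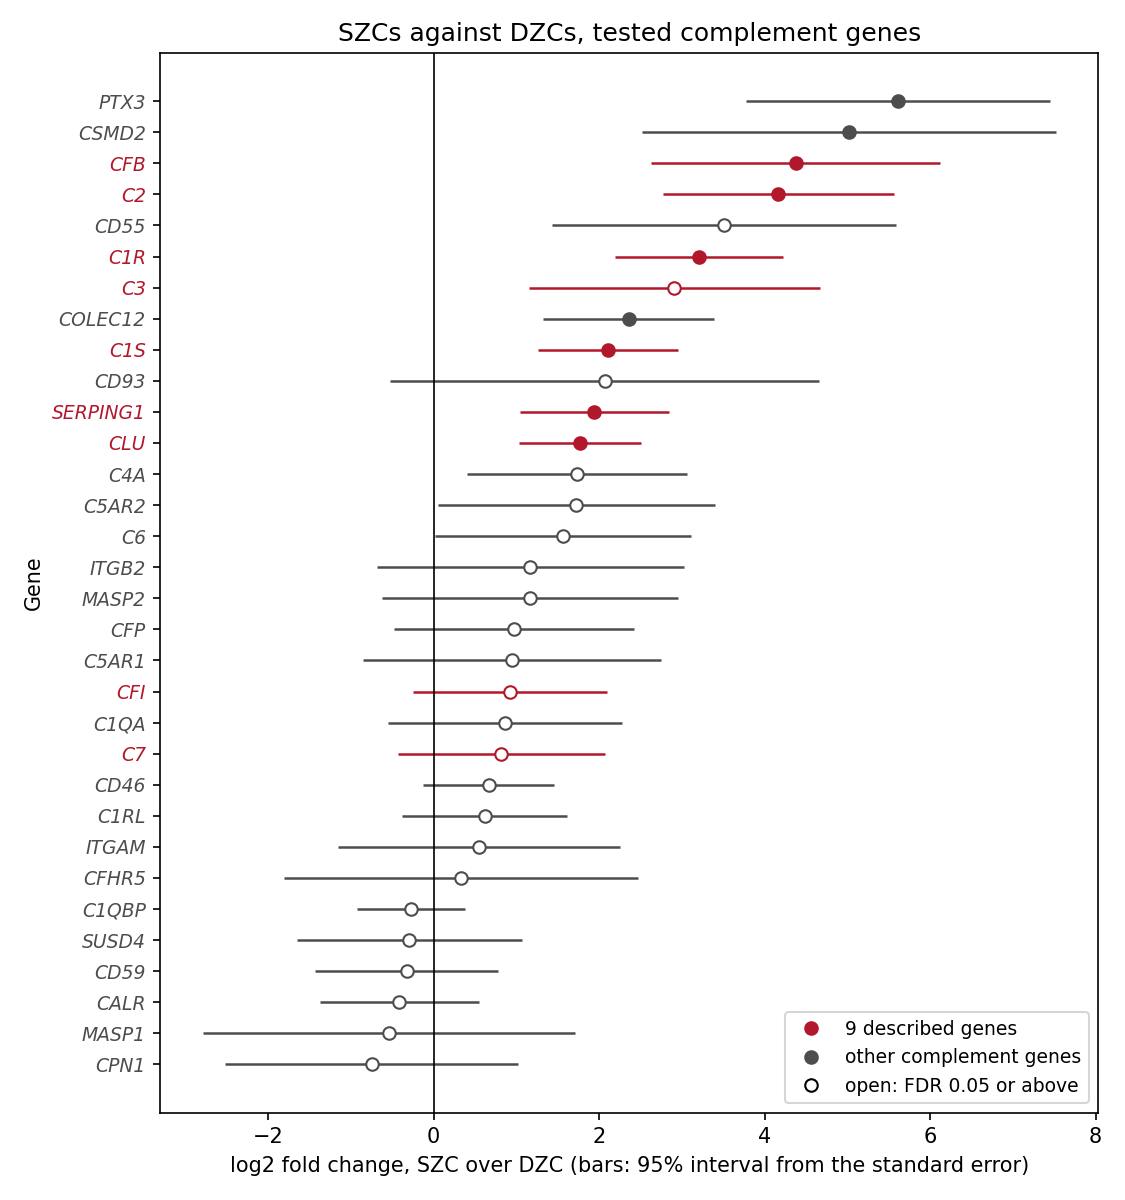
Log2 fold change of SZCs over DZCs with 95% intervals from the standard errors for the 9 complement genes (red) and 23 other tested complement genes (grey), filled where the FDR of edgeR's exact test was below 0.05. The filled symbols are 9 in all, 6 red and 3 grey, and all lie to the right of 0.

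The C1q chains, which carry C1r and C1s, were scarce in these cultures. *C1QA* had 24 and 44 counts in SZCs against 11 and 21 in DZCs, *C1QB* at most 9 and *C1QC* at most 12 in any library. Among terminal components, *C6* was the only one of its list with enough counts to be tested, at 40 and 24 counts in SZCs against 5 and 14 in DZCs (log2 fold change 1.56, edgeR FDR 0.602). *C5* had at most 9 counts in any library and *C9* at most 2, and *C8A* and *C8B* were at 0 counts in all 4 libraries. The receptors of the cleaved fragments of C3 and C5 were also near the floor in part of the libraries. *C5AR1* had 41 and 69 counts in SZCs against 6 and 47 in DZCs, and *C3AR1* had 4 and 25 against 3 and 5. *C5AR2* had 75 and 51 counts in SZCs against 5 and 30 in DZCs, and its zones did not overlap. Of the receptor list 5 genes were tested and none passed in edgeR's exact test, against 2.23% of all tested genes called higher in SZCs. DESeq2 called 0 of them as well. At an unadjusted p-value below 0.05 the exact test kept 1, *C5AR2*, higher in SZCs. At that threshold it kept 6.08% of all tested genes in that direction and 3.01% in the other.

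Regulators on the cell surface are given gene by gene, and differences among them were not tested. *CD55*, which speeds the decay of C3 convertases, was at 33.6 and 26.7 CPM in SZCs against 0.249 and 5.02 CPM in DZCs. Its zones did not overlap, but the DZC libraries differed from each other by more than for any of the 9 genes, and its log2 fold change of 3.51 ± 1.06 (SE) had an edgeR FDR of 0.0943. *CD55* passed in 3 of 8 alternatives, among them DESeq2 (FDR 0.00787) and edgeR without a dispersion trend (FDR 0.00445, the lowest, against up to 0.427), and without either DZC library, at log2 fold changes of 2.59 without replicate 1 and 6.90 without replicate 2. *CD46*, a cofactor of factor I, was at 213 and 146 CPM in SZCs against 93.6 and 133 CPM in DZCs. *CD59*, which blocks the membrane pore, was at 11.9 and 15.5 CPM in SZCs against 24.8 and 9.54 CPM in DZCs. Neither passed, with log2 fold changes of 0.67 (edgeR FDR 0.735) and -0.33 (edgeR FDR 1). *CSMD2*, a membrane protein related to complement regulators, was the only regulator of these lists that passed (edgeR FDR 0.000794). It had 52 and 30 counts in SZCs against 0 and 2 in DZCs, so few in DZCs that its fitted fold change depends on the prior count, and it missed the threshold without either SZC library.

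Complement genes often respond to interferons and to cytokines of the acute phase, and genes of these responses were read from lists as well. Of 20 interferon response genes, 15 were tested, and 1 was called in each direction, against 2.23% of all tested genes called higher in SZCs and 0.7% called higher in DZCs. *B2M* was higher in SZCs (log2 fold change 1.62, edgeR FDR 0.0272) and *RSAD2* lower (log2 fold change -3.33, edgeR FDR 0.0224). Without SZC replicate 1 neither passed (edgeR FDR 1 for both), and the log2 fold change of *B2M* was 0.97. *RSAD2* also missed the threshold without SZC replicate 2 or DZC replicate 1, and without the latter its log2 fold change was -2.07. The median log2 fold change of the 15 was 0.27. Of 20 acute phase and cytokine response genes, 18 were tested, and 2 were called, *CP* and *HP*, both higher in SZCs, against the same 2.23%. *CP*, which encodes ceruloplasmin, differed by 1.39 on the log2 scale (edgeR FDR 0.00741) and did not pass without either SZC library. *HP*, which encodes haptoglobin, had 165 and 77 counts in SZCs against 1 in each DZC library. The median of the 18 was 0.34, and 12 of them had a positive value. *SAA3* of this list was missed because the count table spells it *Saa3*. With names matched without regard to case, a choice made after the data were seen, 3 of 19 genes were called, all higher in SZCs, and the median was 0.41. *Saa3*, which encodes a serum amyloid A protein, had 43694 and 10671 counts in SZCs against 1588 and 2628 in DZCs. It differed by 3.50 on the log2 scale (edgeR FDR 0.000689), and by 2.08 without SZC replicate 1, where it did not pass (edgeR FDR 0.116). At an unadjusted p-value below 0.05 the exact test kept 4 of the 18 higher in SZCs and 2 higher in DZCs. The shares of all tested genes were 6.08% and 3.01%. Genes that did not pass went in both directions. *NFKBIZ* and *OSMR* had log2 fold changes of 1.65 and 1.07 (edgeR FDR 0.12 and 0.463), and others had negative values. *LCN2*, which encodes lipocalin 2, was at 156 and 141 CPM in SZCs against 536 and 231 CPM in DZCs (log2 fold change -1.37, edgeR FDR 0.156). The log2 fold changes of *LIF*, *SOCS3* and *CEBPD* were -2.38, -0.64 and -0.76 (edgeR FDR 0.508, 0.824 and 0.773). The zones overlapped for *CEBPD* and for *LIF*, which was at 0.545 and 0.431 CPM in SZCs against 0.497 and 4.61 CPM in DZCs.

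Leukocytes also transcribe complement genes, and their markers were counted in the same libraries. Of 10 leukocyte markers, 6 were tested and 0 passed in edgeR's exact test or in DESeq2, which called 2.23% and 2.25% of all tested genes higher in SZCs. At an unadjusted p-value below 0.05 the exact test of edgeR kept 1, *CD14*, higher in SZCs, against 6.08% of all tested genes. Their log2 fold changes lay from 0.84 to 1.41 with a median of 1.05. The summed level of the list was 21.5 and 37.3 CPM in SZCs against 7.59 and 17.6 CPM in DZCs. The defining gene *PTPRC* had 6 and 14 counts in SZCs against 0 and 9 in DZCs, *CD3E* had at most 3, and *MS4A1* was at 0 in all libraries. The sum was thus higher in both SZC libraries than in either DZC library, and it was higher in replicate 2 than in replicate 1 of each zone. Of the 9 complement genes, *CFI* had that order in SZCs, *CLU* and *C7* were level, and the other 6 were lower in SZC replicate 2. In DZCs 6 of the 9 had the order of the leukocyte sum, whereas *C3*, *CFB* and *SERPING1* were lower in replicate 2. The 6 endothelial markers summed to 5.40 and 11.7 CPM in SZCs against 3.85 and 7.97 CPM in DZCs. Most of the DZC sums was *VWF*, at 3.36 and 4.48 CPM, which was lower in SZCs, at 2.22 and 3.23 CPM. The other 3 of the 4 endothelial markers tested had positive log2 fold changes, and *KDR* was at 1.59 and 3.57 CPM in SZCs against 0 and 0.672 CPM in DZCs. None of the 4 passed in edgeR's exact test or in DESeq2, which called 2.23% and 2.25% of all tested genes higher in SZCs. *KDR* had an unadjusted p-value of 0.0337 in the exact test of edgeR. That test kept 6.08% of all tested genes in that direction at an unadjusted p-value below 0.05. The 8 synovial fibroblast markers summed to 1052 and 1138 CPM in SZCs against 1282 and 1353 CPM in DZCs. The lower synovial sum of SZCs came from *PDPN*, at 491 and 452 CPM in SZCs against 1102 and 762 CPM in DZCs. Of the 5 synovial markers tested, the other 4 had positive log2 fold changes. For 3 of them, *PDGFRA*, *FAP* and *CD34*, both SZC libraries lay above both DZC libraries, against 21% of all tested genes. *PDGFRA* was at 456 and 465 CPM in SZCs against 126 and 421 CPM in DZCs. The median of the 5 was 0.75, and 0 passed in edgeR's exact test or in DESeq2. These called 2.23% and 2.25% of all tested genes higher in SZCs, and 0.7% and 0.84% higher in DZCs. At an unadjusted p-value below 0.05 the exact test kept 1 in each direction. The shares of all tested genes were then 6.08% higher in SZCs and 3.01% higher in DZCs. The cells carried chondrocyte markers in every library, with 8 markers summing to 120619 and 123245 CPM in SZCs and to 485687 and 188367 CPM in DZCs. All 8 had negative log2 fold changes, with a median of -1.11. The exact test of edgeR called 1 of them higher in DZCs, against 0.7% of all tested genes, and DESeq2 called 3, against 0.84%. The gene called by edgeR was *MATN3*, which encodes a matrilin (log2 fold change -2.04, edgeR FDR 0.00212). It did not pass without either SZC library (edgeR FDR up to 0.855) or with libraries scaled by their totals alone (edgeR FDR 0.108). The 8 markers of hypertrophic cartilage and bone summed to 111 and 104 CPM in SZCs, 31.2 CPM in DZC replicate 1 and 272 CPM in DZC replicate 2. *SPP1* alone made up 108 and 102 CPM of the SZC sums. All 4 markers tested from this list had negative log2 fold changes, with a median of -3.28. For *COL10A1*, *ALPL* and *SPP1* the zones overlapped, with DZC replicate 1 below both SZC libraries and DZC replicate 2 above them. *ALPL* was at 0.454 and 0.215 CPM in SZCs against 0.0622 and 19.9 CPM in DZCs. *IHH*, which encodes the signal of prehypertrophic chondrocytes, was the 1 of these 4 called higher in DZCs, against the same 0.7%, at 0.59 and 0.215 CPM in SZCs against 12.1 and 2.15 CPM in DZCs (edgeR FDR 0.016). With a library left out *IHH* passed only without DZC replicate 2 (edgeR FDR up to 0.552), and its log2 fold change, -4.12 with all libraries, ranged from -5.01 without SZC replicate 1 to -2.40 without DZC replicate 1. The part of other cell types in the differences of the complement genes was not tested.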

How the data were processed

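RNA-Seq libraries were prepared by the authors with a low-input kit, read as single ends and aligned with STAR 2.5.2b to Ensembl build UMD 3.1. The authors deposited raw counts per gene, counted without regard to strand, so reads of overlapping genes cannot be separated. A further deposited table holds the authors' own fold changes and FDR values. It was used only to fill blank gene names. Zones and replicate numbers came from the labels. The ATAC-Seq samples were not used here.

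Counts were compared with edgeR 4.0.16 (R 4.3.3) by TMM scaling, the default expression filter, default dispersions and the exact test, as in the study's methods where these state it. FDR values were adjusted by Benjamini–Hochberg over 12857 genes. Standard errors were computed from gene-wise negative binomial dispersions, and 95% intervals from the standard errors. Scripts were tested on simulated data. Alternatives were the quasi-likelihood test with and without a replicate block, DESeq2 1.42.0, other filters, scalings and dispersions, and each library left out. Members and lists were chosen with earlier results of these data known. Named genes are the 9 members, other listed complement genes that were called or that act with a member, and examples from the other lists. Gene neighbors come from RefSeq, whose assembly differs from that of the counts, so no coordinates are given. One listed gene is not reported here.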

Additional observations from a re-analysis of the deposited data

How the results depend on the processing

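All 9 complement genes had a positive log2 fold change in all 12 other fits, which are 8 alternatives with all libraries and 4 with a library left out. The number called higher in SZCs was 6 of 9. Under the unblocked quasi-likelihood test of edgeR it was 0, with 7 of the 9 at an unadjusted p-value below 0.05, and between 5 and 7 in the other 7 alternatives. That test called 0 genes of the whole table, 0 higher in SZCs and 0 higher in DZCs, with 1126 at an unadjusted p-value below 0.05, and likewise 0 of the other complement genes, 0 interferon genes in either direction and 0 acute phase genes. DESeq2 called 7 of the 9, as did edgeR without a dispersion trend, both adding *C3* (FDR 0.0352 and 0.0368, against 0.0352 to 0.405 over all 8). With libraries scaled by their totals alone, 44 genes were called higher in DZCs, against 90, 86.7% of all calls were higher in SZCs, against 76.1%, and 0 interferon genes were called higher in DZCs. The median log2 fold change of all genes was then 0.26, against -0.04, and that of the 9 complement genes 2.37. The cause was not tested.

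A shared joint behind libraries of equal number is not given in the sources used here. Their deviations from the zone means had a correlation of 0.42 over 12857 genes, which are not independent. A quasi-likelihood fit with a replicate block called 5 of the 9 complement genes (2.04% of all tested genes were called higher in SZCs) and 0 interferon genes higher in SZCs. *CLU*, with an edgeR FDR of 0.0828, was the one lost relative to the exact test. *CD55* passed in that fit (edgeR FDR 0.0418), as it did in 3 of the 8 alternatives, with an FDR from 0.00445 to 0.427. The FDR of *CLU* was between 1.01e-06 and 0.238 in the 8 alternatives.

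Leaving out a library leaves a zone with a lone library, which is assumed to vary like the other zone. The exact test then called 58 to 2725 genes, 52 to 1607 higher in SZCs and 6 to 1118 higher in DZCs. It called 1 to 8 of the 9 complement genes, 1 to 9 of the other complement genes higher in SZCs and 0 to 2 higher in DZCs. Of the interferon genes 0 to 4 were called higher in SZCs and 0 to 2 higher in DZCs, and of the acute phase genes 1 to 6 and 0 to 2. The lowest counts of complement genes came without SZC replicate 1 and the highest without DZC replicate 2. *C2*, *C3* and *C7* had from 4 to 32 counts in the DZC libraries.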

Other observations

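Genes that shared the uneven level of *CFB* and *C3* in the SZC libraries were looked up after those values were seen. After addition of 0.5 CPM, 15 tested genes, 0.117% of those tested, were at least 4-fold higher in SZC replicate 1 than in SZC replicate 2, *CFB* and *C3* among them. They were picked for a high level in an SZC library, so their calls are a description. Of the 15, 7 were called higher in SZCs by edgeR's exact test, against 2.23% of all tested genes, and 4 had a log2 fold change below 0, among them *HMOX1*, with 6627 and 1732 counts in SZCs against 4046 and 3484 in DZCs. Some were also uneven in DZCs, such as *PRSS2*, with 143 and 0 counts in SZCs against 74 and 5 in DZCs. Both serum amyloid A genes in this set are acute phase genes that the file lists as *Saa3* and *M-SAA3.2*. *M-SAA3.2* had 7207 and 1202 counts in SZCs against 233 and 182 in DZCs. Their log2 fold changes of SZCs over DZCs were 3.50 (FDR 0.000689) and 4.07 (FDR 0.0018) by edgeR's exact test, and without SZC replicate 1 they were 2.08 and 2.19 and neither passed (edgeR FDR 0.116 and 0.13). These genes resemble each other, so reads may have been divided between them. *CHI3L1*, a secreted glycoprotein of cartilage and synovium, had 48556 and 12471 counts in SZCs and 1222 and 940 counts in DZCs. *ECM1*, an extracellular matrix protein, had 13019 and 3056 counts in SZCs and 209 and 540 counts in DZCs. The immediate early gene *EGR1*, also among the 15, had 11430 and 1454 counts in SZCs against 1812 and 593 in DZCs. No label separates the SZC libraries, and the pattern was not tested.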
